A study of Mus musculus with 32 samples.

Results

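The theta, omega, kappa, zeta, and microsomal glutathione transferases were examined in RNA of the retinal pigment epithelium (RPE) of mice labelled *rd1*. The 10 genes were taken by symbol, and each matched 1 of the 34453 rows of the count table. They are *Gstt1*, *Gstt2*, and *Gstt3* (theta), *Gsto1* and *Gsto2* (omega), *Gstk1* (kappa), *Gstz1* (zeta), and *Mgst1*, *Mgst2*, and *Mgst3* (microsomal). All 10 passed the filter on low counts in each of the 5 comparisons below.

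By their labels, all mice carried the *rd1* allele of *Pde6b*, under which rods die, and the RPE of 7 mice at P20 and 9 mice at P40 was sequenced. Each mouse gave an Nrf2 eye, injected with AAV-Best1-Nrf2 (the human Nrf2 gene) plus AAV-Best1-GFP, and a control eye that had received AAV-Best1-GFP alone. The Best1 promoter directs expression to the RPE, and control eyes therefore also carried a vector. This gave 7 control and 7 Nrf2 libraries at P20 and 9 of each at P40, all labelled *rd1*. The methods of the study, however, divide the sequenced P40 pairs between *rd1* and CD1 mice, a strain used there as wild type, with CD1 the larger share, and both together match the number of P40 pairs deposited. At P20 they count fewer pairs than the labels do. No label tells which mice these could be. The labels were followed, so most P40 mice may be CD1, and in each comparison of P40 with P20 strain and age cannot be told apart. The run in which a library was sequenced is not given, so run and age cannot be told apart.

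Glutathione transferases join glutathione to reactive compounds or use it to reduce peroxides. The cytosolic theta, omega, and zeta classes, the mitochondrial and peroxisomal kappa class, and the membrane-bound microsomal proteins arose separately or diverged early from the alpha, mu, and pi classes that are best known as targets of the transcription factor Nrf2. The RPE faces light, high oxygen, and lipid peroxides from the outer segments it engulfs, and glutathione is a main defense there.

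Total counts per library were 23756954 to 41463426 in control eyes and 16548332 to 50542797 in Nrf2 eyes at P20. At P40 they were 17721493 to 43412270 and 32422410 to 49147448. The transgene, human *NFE2L2*, was read first as a check of the labels, in CPM (counts scaled to the library total) after TMM normalization. It ranged from 0.925 to 1098 CPM in control eyes at P20 (median 47.2) and from 1083 to 9502 CPM in Nrf2 eyes (median 5430). At P40 it ranged from 0 to 99.2 CPM in control eyes (median 0.383) and from 3204 to 10435 CPM in Nrf2 eyes (median 7026). At P40 the eyes were fully separated, whereas at P20 the control eye of mouse 3 (1098 CPM) lay above the Nrf2 eye of mouse 4 (1083 CPM). The next highest control eye at P20 had 154 CPM and the next lowest Nrf2 eye 4810 CPM.

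These same libraries were the closest pair of the 32. Over genes with at least 20 counts in a pair together, their squared count differences came to 8.26 times the value that counting error alone would give, where the next closest pair had 48. The library labelled control, P20 mouse 3, and the library labelled Nrf2, P20 mouse 4, therefore went against their labels in part. Levels are given with all libraries, and fold changes of the 10 genes and counts of calls that rest on P20 mice 3 and 4 also without them.

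Per kilobase of transcript, the scale used to set genes side by side, *Gsto1* stood first among the 10. Its median over the 16 control eyes was 5457 CPM per kb (highest 20638), which placed it at rank 7 of 16817 genes. *Mgst1* followed with a median of 256 CPM per kb, then *Gstt3* with 90.6, *Gstt2* with 78.8, *Mgst3* with 52.1, *Gstt1* with 32.6, and *Gstz1* with 29.8. The 3 lowest were *Gstk1* (5.76 CPM per kb), *Mgst2* (2.14), and *Gsto2* (1.39). *Gsto1* was above *Mgst1* in 16 of 16 control eyes, *Gstz1* above *Gstk1* in 16, and *Gstk1* above *Mgst2* in 16. In the middle of the order not every eye followed the medians. *Gstt3* exceeded *Gstt2* in 10 of 16, *Gstt2* exceeded *Mgst3* in 13, *Mgst3* exceeded *Gstt1* in 11, and *Gstt1* exceeded *Gstz1* in 12. These counts pool the ages, and the last order differed between them. The median of *Gstt1* was below that of *Gstz1* at P20 (22.7 against 28.4 CPM per kb) and above it at P40 (50.1 against 31.4). No library was at or below 3 counts for any of the 10 genes.

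**Figure D1:**
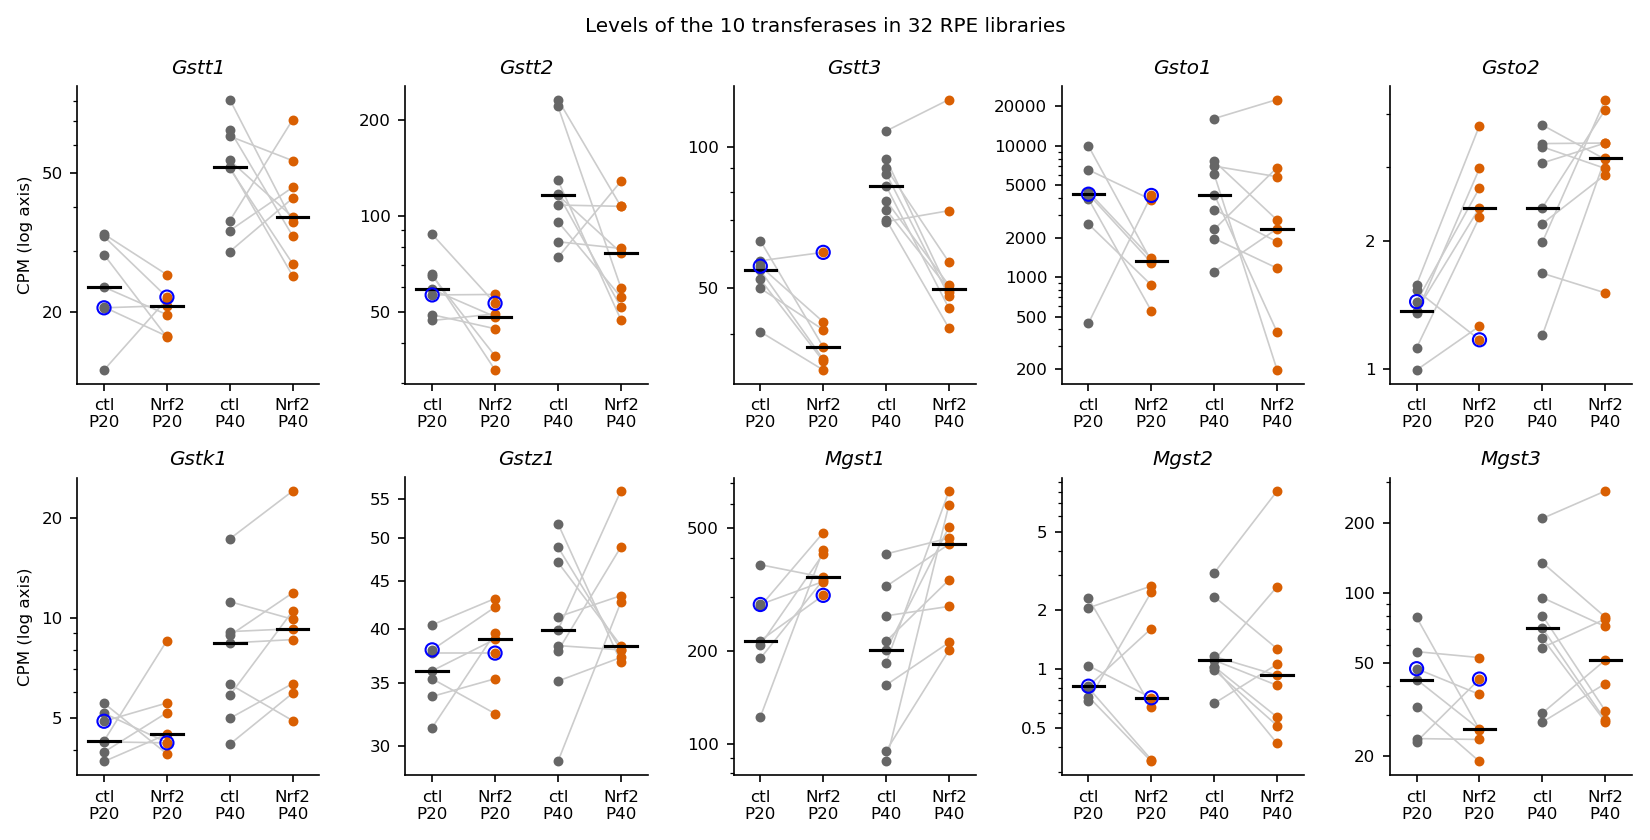
Level of each of the 10 transferases in every library, in CPM on a log axis, with control eyes in gray, Nrf2 eyes in orange, gray lines joining the eyes of a mouse, and black bars at the group medians. Blue rings mark the control eye of P20 mouse 3 and the Nrf2 eye of P20 mouse 4. For Gstt3, all 9 control eyes at P40 lie above all 7 control eyes at P20.

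The theta genes lie in a row on chromosome 10 in GRCm38, all on the minus strand: *Gstt3* (ENSMUSG00000001665) at 75774115 to 75781414, *Gstt1* (ENSMUSG00000001663) at 75783813 to 75798584, and *Gstt2* (ENSMUSG00000033318) at 75831114 to 75837424. *Gsto1* (ENSMUSG00000025068, 47854970 to 47864790) and *Gsto2* (ENSMUSG00000025069, 47865534 to 47886324) are neighbors on the plus strand of chromosome 19. *Gstk1* (ENSMUSG00000029864) and *Mgst1* (ENSMUSG00000008540) are both on the plus strand of chromosome 6, the first at 42245935 to 42250447 and the second at 138140316 to 138156755. Where theta sequences are alike, reads could have been split between the paralogs or left uncounted, depending on the counter. Neither the library kit nor the counting is stated to use the strand. Overlaps were taken over whole genes, introns included, and shared exons were not looked for. *Cfap43* (median 8.9 CPM) overlaps both omega genes on the opposite strand, and *Pomt2* (28.7 CPM) overlaps *Gstz1* likewise. Reads from any exons they share could not be told apart by strand. *Gm20441*, which overlaps *Gstt3* on the same strand, had a median of 0.229 CPM.

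RefSeq promoters (GRCm38.p6) were present for 9 of the 10 genes, 13 in all. Their 250 bases before the start were searched on both strands for TGACNNNGC, the core of the antioxidant response element that Nrf2 binds. It was found in 1 of the 13, a promoter of *Mgst1*, and in 10.2% of all 32851 promoters. The match is on the opposite strand and lies within the first exon of a longer annotated transcript, so 29 bases around it are shown, at chr6:138140461-138140489 on the plus strand, with the match in capitals.
Mgst1: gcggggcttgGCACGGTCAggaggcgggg
The upstream bases of 3 genes that rose with age in control eyes are shown whole, 5′ to 3′ on the strand of each gene. They hold no match, and so no capitals. These are *Gstt1* (chr10:75797732-75797981, minus strand), *Gstt3* (chr10:75781415-75781664, minus strand), and *Gstk1* (chr6:42245685-42245934, plus strand). The bases of *Gstt1* precede its RefSeq start but lie inside the longer gene span given above. Those before the outer start of that span were not searched.
Gstt1: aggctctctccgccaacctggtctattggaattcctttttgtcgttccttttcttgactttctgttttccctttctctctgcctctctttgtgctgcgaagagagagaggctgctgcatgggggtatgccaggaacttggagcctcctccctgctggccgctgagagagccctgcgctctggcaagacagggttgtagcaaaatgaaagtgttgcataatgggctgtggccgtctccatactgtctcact
Gstt3: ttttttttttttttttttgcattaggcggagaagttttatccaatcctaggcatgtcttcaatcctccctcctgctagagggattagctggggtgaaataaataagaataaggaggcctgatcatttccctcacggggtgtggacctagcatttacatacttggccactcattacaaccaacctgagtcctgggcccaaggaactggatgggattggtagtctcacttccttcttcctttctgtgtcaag
Gstk1: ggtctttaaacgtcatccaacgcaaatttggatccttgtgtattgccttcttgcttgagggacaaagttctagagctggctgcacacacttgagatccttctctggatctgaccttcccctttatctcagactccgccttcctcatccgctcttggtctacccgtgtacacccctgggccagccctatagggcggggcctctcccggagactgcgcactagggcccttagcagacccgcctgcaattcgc
A match or its lack describes these letters only.

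To ask whether Nrf2 in the RPE changed these transferases, the eyes of each mouse were compared at each age with edgeR's quasi-likelihood test. *P* values carry a Benjamini-Hochberg adjustment across every gene in the fit, with a threshold of 0.05. None of the 10 passed at P20, where 3.41% of all genes did, and none at P40, where 4.57% did. Before adjustment, 4 of the 10 had a *P* value under 0.05 at P20 and 3 did at P40, as did 18.2% and 13% of all genes. DESeq2 called 2 of the 10 at each age, and 12% and 8.27% of all genes. In limma voom 2 and 3 were called, and 16% and 7.95% of all genes. At P20 the fold changes farthest from 0 were those of *Gsto1* (lower in Nrf2 eyes), *Gsto2*, and *Mgst1* (both higher). At P40 they were those of *Mgst1* (higher), *Gsto1*, *Gstt2*, and *Gstt3* (all lower), and 6 of the 10 had a fold change below 0 on the log2 scale at each age. In bulk RNA, fewer RPE cells and less RNA per cell cannot be told apart.

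**Figure D2:**
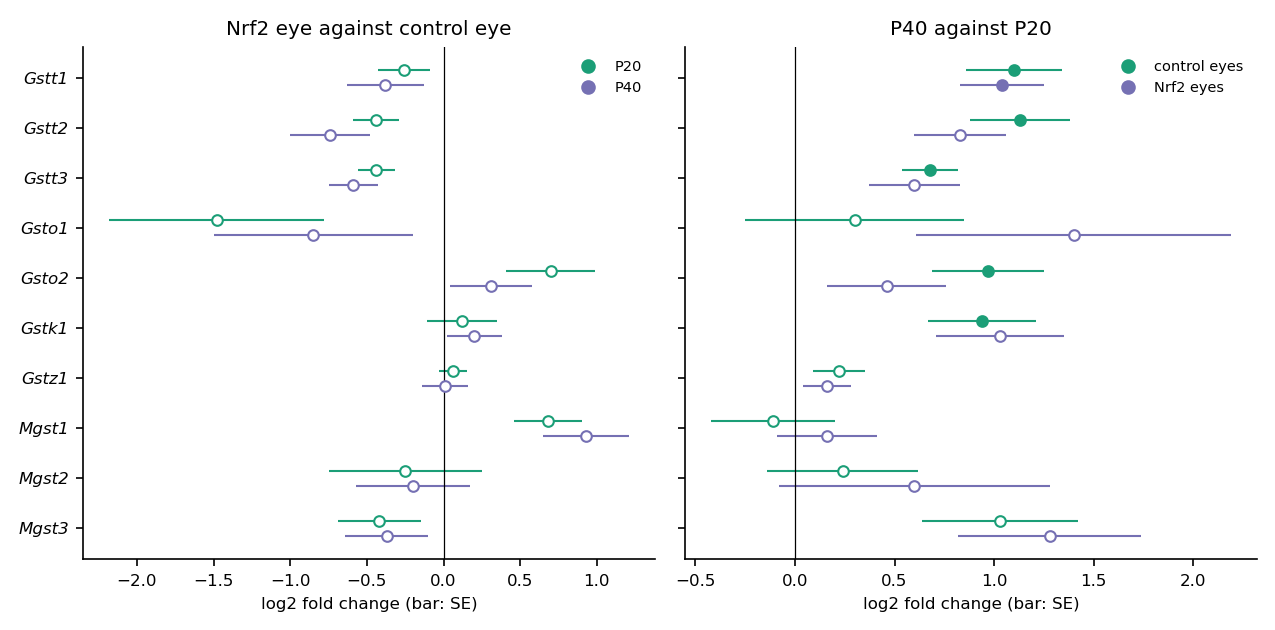
Log2 fold change of each transferase with its standard error, for Nrf2 against control eyes at P20 and P40 (left) and for P40 against P20 in control and Nrf2 eyes (right). Filled points have an adjusted P value under 0.05 in edgeR. All filled points are on the right, 5 for control eyes and 1 for Nrf2 eyes.

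Among the theta genes, whose enzymes act on small halogenated compounds and organic peroxides, *Gstt3* was closest to the threshold. At P20 it ranged from 40.4 to 63.1 CPM in control eyes (median 54.6) and from 33.5 to 59.6 CPM in Nrf2 eyes (median 37.5). The groups overlapped at the lowest control eye, that of mouse 1, and at the Nrf2 eye of mouse 4, which was the highest of its group and lay above most control eyes. *Gstt3* was lower in the Nrf2 eye of 6 of 7 mice, with a log2 fold change of −0.44 ± 0.12 (SE) and an adjusted *P* of 0.0955 in edgeR. Without mouse 4, or in DESeq2 and limma voom, it was called lower, and over all alternatives its adjusted *P* ran from 0.0133 to 0.313. Without mice 3 and 4 the change was −0.56, with an adjusted *P* of 0.0508.

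At P40, *Gstt3* ranged from 69.3 to 108 CPM in control eyes (median 82.5) and from 41.1 to 126 CPM in Nrf2 eyes (median 49.7). Most Nrf2 eyes lay below every control eye, and mouse 3, whose eyes were the highest of both groups, accounted for the overlap together with mouse 8. It was lower in 7 of 9 mice (log2 fold change −0.59 ± 0.16, adjusted *P* = 0.0578). Leaving out mouse 3 or mouse 8 made it pass, as did 4 of the other alternatives, with adjusted *P* values from 0.00934 to 0.238 over all of them.

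*Gstt2* had fold changes of the same sign without passing. Its level at P40 was 74.1 to 231 CPM in control eyes (median 116) and 47.3 to 128 CPM in Nrf2 eyes (median 76.7), which overlapped. It was lower in 8 of 9 mice, by a log2 fold change of −0.74 ± 0.26 (adjusted *P* = 0.189). At P40 limma voom (adjusted *P* = 0.0218) and one fit over all 32 libraries (0.0408) called it lower, within alternatives from 0.0218 to 0.426. At P20 it was lower in 5 of 7 mice (−0.44 ± 0.15, adjusted *P* = 0.162). *Gstt1* gave −0.26 ± 0.17 at P20 and −0.38 ± 0.25 at P40, and was lower in 5 of 7 and 6 of 9 mice.

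Neither omega gene passed at either age. *Gsto1* encodes a thioltransferase that also reduces dehydroascorbate, and it was the most variable of the 10. At P20 it ranged from 445 to 9980 CPM in control eyes (median 4286) and from 553 to 4192 CPM in Nrf2 eyes (median 1324). The groups overlapped widely, with mouse 4 holding both the lowest control eye and the highest Nrf2 eye. It was lower in 6 of 7 mice, with a log2 fold change of −1.48 ± 0.70 (adjusted *P* = 0.308).

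Mouse 4 was the exception, with 3.24 more on the log2 scale in its Nrf2 eye. Without that mouse *Gsto1* was called lower, as it was without mice 3 and 4 (0.25 of the control level, adjusted *P* = 0.0389). Its adjusted *P* ran from 0.00982 to 0.574 over all alternatives. At P40 its range was 1101 to 16160 CPM in control eyes (median 4259) and 196 to 22568 CPM in Nrf2 eyes (median 2338). Mouse 8 had the highest level in both groups, and the within-mouse difference ran from −4.95 to 1.56 on the log2 scale (fold change −0.85 ± 0.65, adjusted *P* = 0.707). It was −0.22 without the pairing of eyes by mouse as a replicate block and −0.18 in one fit over all 32 libraries.

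*Gsto2*, whose enzyme is the stronger dehydroascorbate reductase of the pair, was low. At P20 it ranged from 0.993 to 1.58 CPM in control eyes (median 1.37) and from 1.17 to 3.75 CPM in Nrf2 eyes (median 2.4). All Nrf2 eyes but those of 2 mice exceeded the highest control eye. It was higher in 6 of 7 mice, mouse 4 again the exception, with a log2 fold change of 0.70 ± 0.29 (adjusted *P* = 0.253, and 0.024 to 0.519 over the alternatives, where limma voom called it). At P40 it was higher in 6 of 9 mice (0.31 ± 0.27).

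*Gstk1*, a mitochondrial and peroxisomal transferase, and *Gstz1*, the maleylacetoacetate isomerase of tyrosine breakdown, had small fold changes at both ages. *Gstk1* gave 0.12 ± 0.23 at P20 and 0.20 ± 0.18 at P40, and was higher in 4 of 7 and 7 of 9 mice. *Gstz1* gave 0.06 ± 0.09 and 0.01 ± 0.15. It was also the steadiest of the 10, ranging only from 28.9 to 56.1 CPM over the 32 libraries.

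Of the microsomal genes, *Mgst1*, a peroxidase of the endoplasmic reticulum and outer mitochondrial membrane, was closest to the threshold, without passing at either age. At P20 it ranged from 122 to 381 CPM in control eyes (median 216) and from 303 to 484 CPM in Nrf2 eyes (median 347). At P40 it ranged from 87.5 to 413 CPM in control eyes (median 201) and from 201 to 661 CPM in Nrf2 eyes (median 444). The groups overlapped at both ages, but within mice the Nrf2 eye had more in 6 of 7 at P20 and in 9 of 9 at P40.

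The log2 fold change of *Mgst1* was 0.68 ± 0.22 at P20 (adjusted *P* = 0.146) and 0.93 ± 0.28 at P40 (adjusted *P* = 0.0976). DESeq2 called it at both ages. At P40 limma voom, the offset for transcript length and GC content, and the fit over all libraries called it too, with adjusted *P* values from 0.0145 to 0.237 over all alternatives.

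*Mgst3*, a microsomal transferase with peroxidase activity, was lower in 6 of 7 Nrf2 eyes at P20 (log2 fold change −0.42 ± 0.27) and in 5 of 9 at P40 (−0.37 ± 0.27). *Mgst2*, which can make leukotriene C4, was lower in 4 of 7 and 6 of 9 (−0.25 ± 0.50 and −0.20 ± 0.37), and its direction turned under some alternatives. Its levels were 0.339 to 8.06 CPM over all libraries, so single counts weigh more in it.

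Without P20 mice 3 and 4, the log2 fold change at P20 was −0.27 for *Gstt1*, −0.49 for *Gstt2*, 0.86 for *Gsto2*, 0.12 for *Gstk1*, and 0.04 for *Gstz1*. For the microsomal genes it was 0.80 for *Mgst1*, −0.47 for *Mgst2*, and −0.69 for *Mgst3*. *Gsto1* alone of the 10 passed in that fit, as did 4.58% of all genes (502 higher and 257 lower, against 477 and 79 with all 7 mice). The median of the 10 was −0.37.

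**Figure D3:**
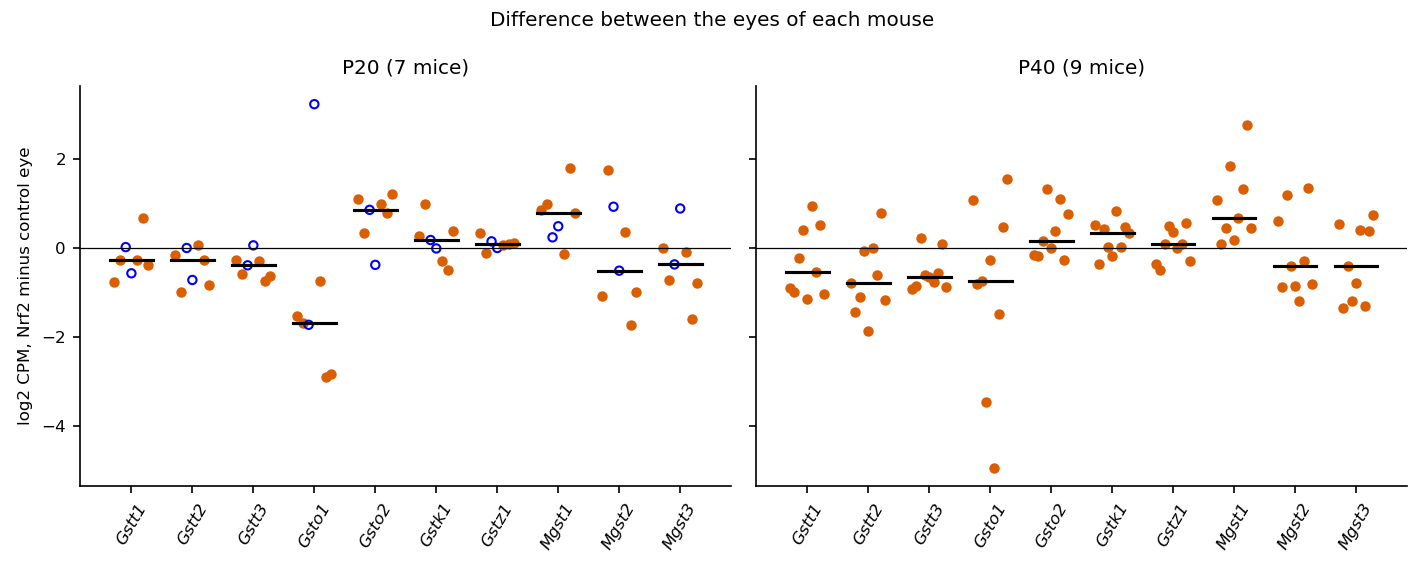
Difference between the Nrf2 eye and the control eye of each mouse, in log2 CPM, for the 10 transferases at P20 (7 mice) and P40 (9 mice). Blue open points are P20 mice 3 and 4, and black bars are medians. All 9 points of Mgst1 at P40 lie above 0, where Gsto1 spans −4.95 to 1.56, and Gsto1 reaches 3.24 in P20 mouse 4.

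To ask how the transferases differed between the ages, P40 was compared with P20 in control eyes. Of the 10, 5 rose and none fell, namely all 3 theta genes, *Gsto2*, and *Gstk1*, whereas 14.8% of all genes were called in either direction and 8.34% were called higher. The median log2 fold change of the 10 was 0.81, with and without P20 mice 3 and 4, against 0.00 over all genes. The theta genes kept their calls whichever of the 16 libraries was left out. Without P20 mice 3 and 4 none of the 10 was called, and the calls among all genes went from 2483 to 158, while the fold changes of the 5 stayed between 0.71 and 1.22 on the log2 scale.

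*Gstt1* ranged from 13.7 to 33.4 CPM at P20 (median 23.6) and from 29.8 to 80.8 CPM at P40 (median 51.9). The ages overlapped only at the control eye of P40 mouse 8, the lowest of its group. The gene rose by a log2 fold change of 1.10 ± 0.24, or 2.15-fold (adjusted *P* = 0.018). Without mice 3 and 4 the change was 1.14 with an adjusted *P* of 0.0572, and over all alternatives the adjusted *P* ran from 0.000313 to 0.0572.

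*Gstt2* ranged from 47 to 87.5 CPM at P20 (median 58.8) and from 74.1 to 231 CPM at P40 (median 116). The highest control eye at P20, that of mouse 4, reached into the P40 range. It rose by 1.13 ± 0.25 on the log2 scale, or 2.19-fold (adjusted *P* = 0.0188), and by 1.22 without mice 3 and 4 (adjusted *P* = 0.0548, the highest of all alternatives, which began at 0.00042).

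*Gstt3* was the member whose ages did not overlap in control eyes, with 40.4 to 63.1 CPM at P20 against 69.3 to 108 CPM at P40. Such a separation toward P40 was found for 1.13% of all genes. The rise was 0.68 ± 0.14 on the log2 scale, or 1.61-fold (adjusted *P* = 0.0126). It was 0.71 without mice 3 and 4 (adjusted *P* = 0.0543) and 0.41 with the offset for transcript length and GC content (adjusted *P* = 0.0687), within alternatives from 1.47e-05 to 0.0687.

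*Gsto2* rose from a median of 1.37 CPM at P20 (0.993 to 1.58) to 2.4 CPM at P40 (1.2 to 3.76). The ages overlapped at the lowest P40 eye, that of mouse 4. The log2 fold change was 0.97 ± 0.28 (adjusted *P* = 0.0348). *Gstk1* went from a median of 4.27 CPM (3.7 to 5.54) to 8.41 CPM (4.17 to 17.3), overlapping in the P40 eyes of mice 1 and 9, with a log2 fold change of 0.94 ± 0.27 (adjusted *P* = 0.036).

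Both of these calls depended on single libraries. *Gsto2* kept its call in 6 of 16 fits that left out a library and *Gstk1* in 8 of 16, and their adjusted *P* values ran from 0.00317 to 0.0951 and from 0.00542 to 0.103 over the alternatives. Without the control eye of P20 mouse 1, 2, 3, 4, 5, or 7, or of P40 mouse 3 or 5, neither was called and 3 of the 10 were. In those fits 2.77% to 6.68% of all genes were called.

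The other 5 did not pass. *Mgst3* was 1.03 ± 0.39 higher on the log2 scale (adjusted *P* = 0.0773), from a median of 42.5 CPM (23 to 78.6) to 70.6 CPM (27.9 to 209). DESeq2 called it, as did the fit without the control eye of P40 mouse 1. *Gstz1* gave 0.22 ± 0.13, *Mgst2* 0.24 ± 0.38, *Gsto1* 0.30 ± 0.55, and *Mgst1* −0.11 ± 0.31. Without P20 mice 3 and 4 these became 0.91 for *Mgst3*, 0.23 for *Gstz1*, 0.11 for *Mgst2*, 0.03 for *Gsto1*, and −0.10 for *Mgst1*.

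Libraries at P40 also differed from those at P20 in the share of counts on short transcripts. Genes with transcripts of up to 1271 bases, the longest of the 10 transferases, took 32.3% to 35.5% of counts in control eyes at P20 (median 35.1%) and 35.2% to 58.5% at P40 (median 43.4%). The highest shares were 58.5% in mouse 3 and 56.7% in mouse 5. With the offset for transcript length and GC content, *Gstt1* (0.97, adjusted *P* = 0.0244) and *Gstt2* (1.04, adjusted *P* = 0.0235) were still called in edgeR, whereas *Gstt3* (0.41), *Gsto2* (0.73, adjusted *P* = 0.0744), and *Gstk1* (0.64, adjusted *P* = 0.102) were not.

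In Nrf2 eyes, P40 was again compared with P20. The libraries are others than those of the control eyes but come from the same mice, so this comparison is not independent of that one. *Gstt1* rose and the other 9 did not pass, where 0.502% of all genes were called in either direction and 0.167% higher. The fold change of all 10 was above 0. *Gstt1* ranged from 17 to 25.6 CPM at P20 (median 20.9) and from 25.4 to 70.8 CPM at P40 (median 37.4). The ages met only at the lowest P40 eye, that of mouse 9.

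The log2 fold change of *Gstt1* was 1.04 ± 0.21 (adjusted *P* = 0.0387). The call was kept in 4 of 16 fits that left out a library, those without P40 mouse 1, 2, 6, or 9, and ended without P20 mice 3 and 4 (1.06, adjusted *P* = 0.155, the highest of the alternatives, which began at 0.000659), with the offset for length and GC content (0.88, adjusted *P* = 0.0597), and with no filter on low counts. *Gstt2* gave 0.83 ± 0.23 (adjusted *P* = 0.11), *Gstt3* 0.60 ± 0.23, *Gstk1* 1.03 ± 0.32 (adjusted *P* = 0.11), and *Mgst3* 1.28 ± 0.46 (adjusted *P* = 0.119). *Mgst3* was at 0.69 without P40 mouse 8 and at 0.41 in limma voom. *Gsto1* gave 1.40 ± 0.79, with 0.49 without that mouse and 0.72 in limma voom, and *Mgst2* gave 0.60 ± 0.68, with −0.24 without that mouse. DESeq2 called *Gstt1*, *Gstt2*, *Gstk1*, and *Mgst3*, where it called 10.8% of all genes. In limma voom the 3 theta genes and *Gstk1* were called, and 13.2% of all genes. Without P20 mice 3 and 4, the fold changes of the 10 lay between 0.07 (*Mgst1*) and 1.66 (*Gsto1*).

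Whether the Nrf2 effect itself differed between the ages was tested over all 32 libraries. None of the 10 passed in edgeR, with none at an unadjusted *P* value under 0.05 and none in DESeq2 or limma voom, and 0.00557% of all genes were called. The difference between the ages ran from −0.38 ± 0.38 (*Gsto2*) to 0.63 ± 1.00 (*Gsto1*) on the log2 scale, and from −0.58 to 1.14 for the same genes without P20 mice 3 and 4.

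A few pairs of transferases varied together between mice. For each of the 45 pairs of genes, levels in the 16 control eyes about the mean of their age, and differences between the eyes of the 16 mice, were correlated in log2 CPM, 90 relations in all, with permutation tests within ages. In control levels, 4 pairs had an adjusted *P* under 0.05 for Pearson's r, all positive, and 2 of them also for Spearman's rho. None of the pairs passed for the differences between eyes. Of the 45 pairs in control levels, r was above 0 in 28 and below 0 in 17, the lowest being −0.69 (*Gstk1* and *Gstz1*, adjusted *P* = 0.14). That pair differed in sign between the ages, with 0.61 at P20 and −0.84 at P40. Without the 2 eyes farthest from the median of *Gstk1* it gave −0.32. Pairs of other genes were not tested. Strain may differ among the P40 mice, and the share of counts on short transcripts varied among P40 libraries. Their part in these relations was not tested.

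*Gstk1* and *Mgst3* gave r = 0.90 and rho = 0.86 (permutation *P* = 1e-05, the smallest that 100000 permutations can give, and 9e-05, adjusted 0.0009 and 0.00405). It was 0.90 at P20 and 0.94 at P40, 0.82 without the 2 eyes farthest from the median of *Gstk1*, and 0.92 without P20 mice 3 and 4. *Gstk1* and *Mgst2* gave r = 0.80 and rho = 0.76 (permutation *P* = 2e-05 and 9e-05, adjusted 0.0009 and 0.00405), with 0.81 at P20, 0.91 at P40, 0.65 without the 2 farthest eyes, and 0.82 without P20 mice 3 and 4.

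*Gsto1* and *Mgst3* gave r = 0.76 and rho = 0.73 (permutation *P* = 0.00048 and 0.00288, adjusted 0.013 and 0.0864), with 0.83 at P20, 0.76 at P40, 0.72 without the 2 farthest eyes, and 0.79 without P20 mice 3 and 4. *Mgst2* and *Mgst3* gave r = 0.79 and rho = 0.64 (permutation *P* = 0.00058 and 0.00945, adjusted 0.013 and 0.121), with 0.67 at P20, 0.87 at P40, 0.62 without the 2 farthest eyes, and 0.83 without P20 mice 3 and 4. *Gstt1* and *Gstt2*, both of the theta class, gave r = 0.70 and rho = 0.67 (permutation *P* = 0.00389 and 0.00673, adjusted 0.0504 and 0.113), with 0.40 at P20 and 0.85 at P40. In the differences between eyes the same pair gave r = 0.73 and rho = 0.69 (permutation *P* = 0.00392 and 0.00752, adjusted 0.0504 and 0.113). *Gstt1* and *Gstt3*, which lie closer together, gave r = 0.24 in control levels and 0.17 in the differences. *Gstt2* and *Gstt3* gave 0.64 and 0.35. *Gsto1* and *Gstk1* in control levels gave r = 0.64 and rho = 0.71 (permutation *P* = 0.00305 and 0.00429, adjusted 0.0504 and 0.0965), with 0.54 at P20 and 0.81 at P40.

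**Figure D4:**
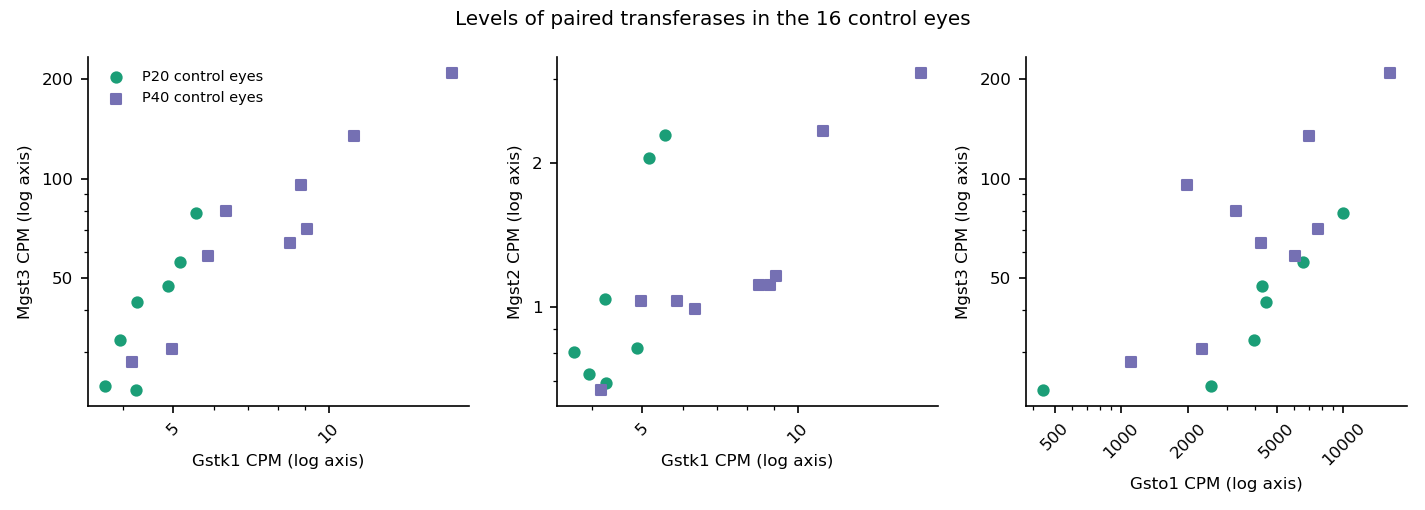
Levels of 3 pairs of transferases in the 16 control eyes, in CPM on log axes, with P20 as circles and P40 as squares. Within each age, eyes with more Gstk1 had more Mgst3, and the highest point in all 3 panels is P40 mouse 8.

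P40 mouse 8 held the highest *Gsto1*, *Gstk1*, *Mgst2*, and *Mgst3* of both P40 groups. Its control eye had 16160 CPM of *Gsto1* and 209 CPM of *Mgst3*, and the lowest *Gstt1*, *Gstt2*, *Gstt3*, *Gstz1*, and *Mgst1* of its group. The library of that eye was also the smallest of its group, with 17721493 counts. The summed level of 8 RPE markers was also lowest in that eye, at 8581 CPM, as were those of Müller glia (4191 CPM), melanocytes (2574 CPM), inner retina (249 CPM), and macrophages and microglia (74.3 CPM). Its part in the relations above, beyond the values without the farthest eyes, was not tested.

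Marker genes of the RPE were abundant in every library, from 8581 to 65435 CPM summed over 8 genes, of which *Ttr* was the highest with a median of 7691 CPM. RPE markers were called lower in Nrf2 eyes for 1 of 8 at P20 and 4 of 8 at P40. Their sum was higher in the Nrf2 eye of 5 of 7 mice at P20 (medians 17458 against 13887 CPM) and lower in that of 5 of 9 at P40 (14593 against 23220 CPM). Between the ages in control eyes, 1 of the 8 rose and 1 fell. Of all genes, 3.41% were called between eyes at P20, 4.57% at P40, and 14.8% with age in control eyes. The 8 rod markers, *Sag* the highest, summed to 18.6 to 361 CPM in control eyes at P20 and 6.52 to 87 in Nrf2 eyes, and to 55.1 to 443 and 6.89 to 44.1 at P40. The 8 cone markers, *Gnb3* the highest, summed to 45.7 to 1098 CPM in control eyes at P20 and 26.4 to 131 in Nrf2 eyes, and to 307 to 2273 and 52.4 to 503 at P40.

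Calls among photoreceptor markers were mainly those of cones at P40. Cone markers were called lower in Nrf2 eyes for 2 of 8 at P20 and 7 of 8 at P40, rod markers for 0 of 8 and 1 of 7, and the cone sum was lower in the Nrf2 eye of 6 of 7 and 8 of 9 mice. The rod sum was lower in 6 of 7 and 9 of 9, and the Müller glia sum in 6 of 7 and 8 of 9. The Müller glia list shares *Rlbp1* with the RPE list, so its sum is not one of glia alone. With age in control eyes, no cone marker was called and 2 of 8 rod markers fell, where 14.8% of all genes were called. No list had a marker at 0 in every library, but *Slc32a1* (inner retina) and *Slc4a1* (blood) had medians at or below 3 counts. The part of these cells in the values of the transferases was not tested.

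The 8 macrophage and microglia markers, led by *Csf1r*, were called higher in Nrf2 eyes for 4 of 8 at P40 and 0 at P20. Of all genes, 4.57% and 3.41% were called. Müller glia markers (*Apoe* the highest, with a median of 4986 CPM) fell for 1 of 8 at P40, and 1 of 8 fibroblast markers (*Fbln1* the highest) rose. With age in control eyes, 4 of 8 fibroblast, 3 of 8 melanocyte (*Dct* the highest), 2 of 7 inner retina (*Trpm1* the highest), and 1 of 5 blood markers (*Hba-a1* the highest) fell. There 14.8% of all genes were called, and 1080 of 16832 were called lower. Endothelium (*Plvap* the highest) and muscle (*Acta1* the highest) had no call in these comparisons. In Nrf2 eyes, *Trpm1* and *Pmel*, a pigment cell gene in both the RPE and melanocyte lists, fell with age, where 0.502% of all genes were called. Without P20 mice 3 and 4, the marker calls at P20 were 1 RPE and 1 cone marker lower and 1 Müller glia marker higher. Between the ages, 1 rod and 1 fibroblast marker and *Pmel* were then called lower in control eyes, and *Pmel* alone in Nrf2 eyes. Those fits called 4.58% of all genes at P20, and 0.916% and 0.116% with age in control and Nrf2 eyes.

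The 10 transferases were set beside 9 lists of related genes. Of all genes, 3.41% were called between eyes at P20, 4.57% at P40, and 14.8% with age in control eyes. Among the alpha, mu, pi, and sigma transferases, 11 of 14 tested were called higher in Nrf2 eyes at each age and none lower. Their median log2 fold change was 2.09 at P20 and 2.58 at P40, against −0.25 and −0.29 for the 10 and −0.04 and −0.03 over all genes. *Gstm1*, a mu-class enzyme, rose by 5.36 ± 0.79 at P20 (adjusted *P* = 0.0134, higher in 7 of 7 mice) and by 6.24 ± 0.35 at P40 (adjusted *P* = 4.37e-06, 9 of 9). *Gsta2* of the alpha class rose by 3.82 ± 0.45 and 3.77 ± 0.27. *Gstm3* was called at both ages too, but its control eyes were at 3 counts or fewer in 6 of 7 and 9 of 9 libraries, so its levels are given without a fold. They were 0.0281 CPM in control and 0.968 CPM in Nrf2 eyes at P20, and 0.0239 and 1.74 CPM at P40 (medians). Taken at a floor of 3 counts, it left the medians of the list at 2.09 and 2.58.

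**Figure D5:**
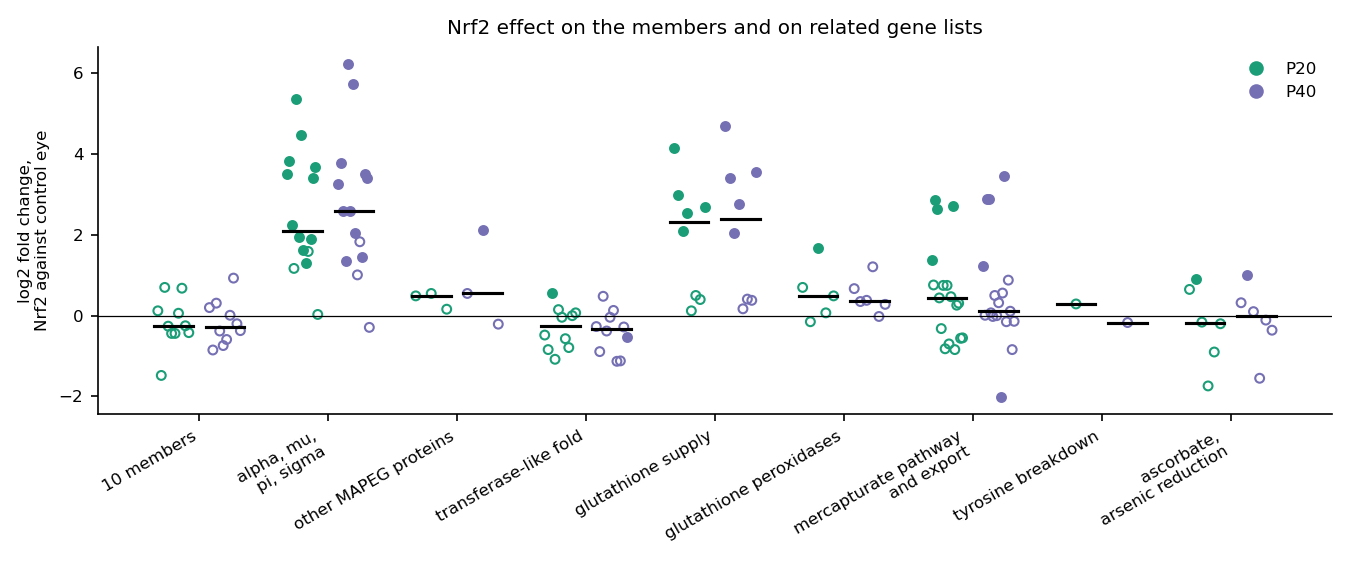
Log2 fold change of the 10 transferases and of the genes of the related lists in Nrf2 against control eyes at P20 and P40. Filled points have an adjusted P value under 0.05 in edgeR, and black bars are medians. The alpha, mu, pi, and sigma transferases have medians of 2.09 and 2.58, and the 10 have medians of −0.25 and −0.29.

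Of the genes that supply glutathione, 5 of 8 were called higher at each age, led by *Gclc* and *Gclm*, the subunits of glutamate-cysteine ligase (4.16 ± 0.50 and 2.99 ± 0.34 at P20, 4.69 ± 0.44 and 3.41 ± 0.22 at P40), and the cystine transporter *Slc7a11* (2.68 ± 0.33 and 3.55 ± 0.37). With age in control eyes, *Gclc* (−1.27 ± 0.39) and *Slc7a11* (−0.90 ± 0.23) were called lower, in 6 and 13 of 16 fits without a library. Neither was called without P20 mice 3 and 4, at −0.52 and −0.78. Among 5 glutathione peroxidases tested at P20, *Gpx4*, which reduces lipid peroxides, rose with Nrf2 (1.67 ± 0.32, a call kept in 2 of 7 fits without a mouse) and with age in control eyes (1.47 ± 0.34). None of the 6 tested between eyes at P40 was called, where *Gpx4* gave 1.21 ± 0.34 (adjusted *P* = 0.0804).

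The mercapturate pathway processes and exports the conjugates that transferases make. With Nrf2, 4 of 17 rose at each age and 1 fell at P40, where 3.41% (P20) and 4.57% (P40) of all genes were called. These were led by *Ggt5* (2.71 ± 0.40 at P20 and 3.45 ± 0.49 at P40), *Abcc4* (2.64 ± 0.32 and 2.89 ± 0.38), and *Abcc3* (2.87 ± 0.60 and 2.88 ± 0.72, each kept in 1 fit without a mouse). *Dpep2*, a dipeptidase, fell at P40 (−2.02 ± 0.23) and rose with age in control eyes (1.57 ± 0.36), where *Nat8* (1.14 ± 0.31) and *Acy3* (0.71 ± 0.17) also rose and *Abcc4* fell (−0.85 ± 0.24).

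The remaining lists had few calls. The shares of all genes called were 3.41% between eyes at P20, 4.57% at P40, and 14.8% with age in control eyes. Of 3 other proteins of the microsomal superfamily, *Ltc4s*, the leukotriene C4 synthase, rose with Nrf2 at P40 (2.12 ± 0.49). Of 10 proteins with a transferase-like fold, *Clic4* rose with Nrf2 at P20 (0.56 ± 0.12), *Ptges2* fell at P40 (−0.52 ± 0.13), and *Gstcd* rose with age in control eyes (0.87 ± 0.28). *Cyb5r3*, from 6 genes of ascorbate and arsenic reduction, rose with Nrf2 at both ages (0.92 ± 0.14 and 1.01 ± 0.21). In tyrosine breakdown, *Fah*, the enzyme after *Gstz1*, was the 1 gene of 5 tested between eyes and with age, and rose with age in control eyes (0.48 ± 0.14). *Gsta1* (1.16 ± 0.35) and *Gstm7* (0.85 ± 0.23) rose likewise, and the theta gene *Gstt4* was not tested, with at most 0.767 CPM.

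Several of these list calls depended on single libraries. Among calls between eyes, that of *Gstm3* at P20 was kept in 2 of 6 fits without a mouse, *Clic4* in 1 of 7, *Ptges2* in 2 of 9, and *Ltc4s* in 5 of 9. Among calls with age in control eyes, *Gstcd* was kept in 3 of 16 fits, *Abcc4* and *Fah* in 6, *Gsta1* in 7, *Nat8* in 9, and *Gstm7* in 10. *Gstm1*, *Gsta2*, *Gclc*, *Gclm*, *Slc7a11*, and *Abcc4* were called in each of the 7 and 9 fits between eyes.

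Without P20 mice 3 and 4, the counts at P20 were again 11 of 14 alpha, mu, pi, and sigma transferases, 5 of 8 genes of glutathione supply, and 4 of 17 of the mercapturate pathway, all higher, with a median of 2.34 for the first list. The log2 fold changes at P20 were then 6.31 for *Gstm1*, 4.38 for *Gsta2*, 4.82 for *Gclc*, 3.41 for *Gclm*, and 3.10 for *Slc7a11*. Those of *Ggt5*, *Abcc4*, and *Abcc3* were 3.22, 3.01, and 3.63. *Gpx4* and *Cyb5r3* were called, *Clic4* was not, and *Clic5*, of the transferase-like fold, was called lower. No gene of these lists was called by edgeR with age in control eyes without those mice, where the fold changes of those named above ran from −0.78 to 1.62.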

How the data were processed

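RPE RNA of both eyes of 16 mice had been amplified from small amounts before sequencing. The authors deposited whole numbers without normalization. Each was taken as an estimated count from Salmon 0.9.1, which the submitters' processing notes name, but no source says which counter gave them, and the methods also describe featureCounts, whose counts are whole numbers. The methods give mm10 with Ensembl transcripts. Members and gene lists were chosen with earlier results of these data known. Named from a list are the 3 called genes with the largest change in each direction.

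The analysis used edgeR 4.0.16 under R 4.3.3 (filterByExpr, TMM, quasi-likelihood test, not robust), with the mouse as a block between eyes and none between ages. DESeq2 1.42.0 and limma 3.58.1 were alternatives, beside RLE normalization, other filters, an offset for length and GC content, other fits, and left-out mice or libraries. Tests were run first on simulated data. The pairing of eyes rests on the replicate number shared by sample titles of the same age, which name no mouse. Counts of mice and the block between eyes rest on it too. As a check, each library's deviations from its group were correlated between eyes. Eyes of the same mouse had a mean r of 0.0209 (P20) and 0.0992 (P40), and eyes of different mice −0.000472 and −0.00633. An r above 0.1 was found in 3 of 7 pairs at P20 and 3 of 9 at P40, so the pairing remains an assumption. Log2 CPM used a prior count of 2. Amplified reads are not independent molecules, so the floor of 3 counts (0.0566 to 0.182 CPM) covers counting error only.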

Additional observations from a re-analysis of the deposited data

Results flagged for a closer look

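In 40 groups of libraries, 10 genes in 4 groups each, 3 libraries stood far from the others of their group for their range, where chance marks about 1 group in 20. *Gstt3* in the Nrf2 eye of P20 mouse 4 was high at 59.6 CPM, with a gap to the next library of 0.593 of the range of the group on the log2 scale. *Gsto2* in the Nrf2 eye of P40 mouse 1 was low at 1.51 CPM, with a gap of 0.608 of the range. *Mgst3* in the Nrf2 eye of P40 mouse 8 was high at 274 CPM, with a gap of 0.546 of the range. The cause was not tested.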

How the results depend on the processing

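The main counts of transferases called were 0 with Nrf2 at P20 and at P40, 5 and 1 with age in control and Nrf2 eyes, and 0 for the difference between ages, which stayed at 0 throughout. With Nrf2 at P20, DESeq2 gave 2, limma voom 2, and the fit without P20 mice 3 and 4 gave 1. At P40, DESeq2 gave 2, limma voom 3, the filter of 10 counts 1, the length and GC offset 2, and one fit over all 32 libraries 2. Of all genes, 4.85% were called with that filter, 4.88% with the offset, and 5.87% in the one fit. With age in control eyes, DESeq2 gave 6, no filter 3, the offset 2, and leaving out mice 3 and 4 gave 0. In the same order, these fits called 26%, 3.32%, 7.74%, and 0.916% of all genes. In Nrf2 eyes, DESeq2 and limma voom gave 4, and no filter, the offset, and leaving out mice 3 and 4 gave 0. Of all genes, 0.105% were called there with no filter, 0.46% with the offset, and 0.116% without those mice. Leaving out a mouse or library gave 0 to 2 at P20, 0 to 1 at P40, 3 to 6 with age in control eyes, and 0 to 1 in Nrf2 eyes. Without the replicate block no count changed.

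Directions turned only for genes that were not called. *Mgst2* at P20 gave 0.00 in limma voom, 0.01 with no replicate block, and 0.06 in one fit. At P40 it gave 0.35 with no replicate block and 0.38 in one fit. *Gstz1* at P40 gave −0.05 in limma voom, −0.01 with the offset, and −0.00 with no replicate block. With the offset, *Mgst2* gave −0.30 with age in control eyes, and in Nrf2 eyes *Gstz1* gave −0.01, *Mgst1* −0.25, and *Mgst2* −0.20. *Mgst3* gave −0.06 for the difference between ages in limma voom. With a mouse or library left out, the log2 fold change at P20 was −0.02 to 0.24 for *Gstk1* and −0.57 to 0.04 for *Mgst2*, and at P40 −0.06 to 0.08 for *Gstz1*. With age in control eyes it was −0.10 to 0.62 for *Gsto1* and −0.33 to 0.03 for *Mgst1*, and in Nrf2 eyes −0.24 to 0.90 for *Mgst2*. For the difference between ages it was −0.31 to 0.04 for *Gstt1*, −0.03 to 0.23 for *Gstk1*, −0.15 to 0.02 for *Gstz1*, −0.22 to 0.38 for *Mgst2*, and −0.14 to 0.26 for *Mgst3*. Of 1050 alternative values, 940 kept direction and side of the threshold. The cause was not tested.

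Calls among all genes moved more. At P20 they were 556, against 1951 in DESeq2, 2605 in limma voom, 348 with no filter, 759 without mice 3 and 4, 1093 with no replicate block, and 111 to 1999 without a mouse. Higher genes led (477 to 79), except without mouse 4 (986 to 1013). At P40 they were 762, against 1380 in DESeq2, 1327 in limma voom, and 521 to 997. With age in control eyes they were 2483, against 4330, 3747, 914 with no filter, 1303 with the offset (899 higher and 404 lower, against 1403 and 1080), 158 without mice 3 and 4, and 473 to 4273. Their balance turned to more lower than higher in limma voom (1625 higher, 2122 lower), with no filter (295 and 619), without mice 3 and 4 (35 and 123), and in 9 of 16 fits without a library, each of the 7 that left out a P20 library and those without P40 mouse 3 or 5. In Nrf2 eyes they were 84, against 1635, 2213, 31 with no filter, 20 without mice 3 and 4, 496 in one fit, and 21 to 190, with 28 higher and 56 lower, but 1037 and 598 in DESeq2. For the difference between ages there was 1, against 12 in DESeq2.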
